A study of Mus musculus with 61 samples.

Results

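Mice carry 4 stearoyl-CoA desaturase genes, Scd1, Scd2, Scd3 and Scd4, and all 4 were read in 61 RNA-seq libraries of mouse adipose tissue. They were taken by symbol from a table of 21169 genes, and all 4 passed the filter on low counts, which kept 18603 genes. The mice belonged to the 8 inbred strains that founded the Diversity Outbred population, named in the labels 129, AJ, B6, Cast, NOD, NZO, PWK and WSB. Every group had the same high-fat, high-sugar diet, given as 45% fat, so no library shows an unchallenged diet. There were 7 libraries each of 129, AJ and Cast and 8 of each other strain. Age, sex and the fat depot are not given in the sources used here. Cast, PWK and WSB are wild-derived strains, and 129, AJ, B6, NOD and NZO are classical laboratory strains.

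A stearoyl-CoA desaturase sits in the membrane of the endoplasmic reticulum and places the first cis double bond in saturated fatty acyl-CoA, turning stearoyl-CoA into oleoyl-CoA and palmitoyl-CoA into palmitoleoyl-CoA. It uses oxygen and electrons passed from NADH through cytochrome b5 reductase and cytochrome b5, and its iron atoms are held by histidines in short conserved boxes. The products are the main acyl chains of stored triglyceride, phospholipids, cholesteryl esters and wax esters. Scd1 is the main form of fat and liver, Scd2 is best known from brain and from early life, Scd3 from skin and Scd4 from heart.

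The 4 genes lie side by side on chromosome 19 (GRCm38) within 204422 bases. Scd3 (ENSMUSG00000025202) spans bases 44203288 to 44244016 on the plus strand, Scd2 (ENSMUSG00000025203) 44293676 to 44306864 on the plus strand, Scd4 (ENSMUSG00000050195) 44333092 to 44346743 on the plus strand and Scd1 (ENSMUSG00000037071) 44394451 to 44407709 on the minus strand. Each principal transcript had 6 exons. The coding sequence of Scd1 was identical to that of Scd3 at 90.4% of aligned positions, to Scd2 at 89.6% and to Scd4 at 84.3%. The stretch of 87 coding bases around the second histidine box is shown because it is among the places where the copies can hardly be told apart by a short read. It runs across an exon junction in each gene, and capitals mark bases that differ from Scd1.
Scd1: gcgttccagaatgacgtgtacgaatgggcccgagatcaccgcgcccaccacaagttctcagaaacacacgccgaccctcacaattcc
Scd2: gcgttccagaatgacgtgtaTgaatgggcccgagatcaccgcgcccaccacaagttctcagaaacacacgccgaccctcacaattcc
Scd3: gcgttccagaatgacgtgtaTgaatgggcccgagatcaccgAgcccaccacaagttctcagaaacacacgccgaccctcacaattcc
Scd4: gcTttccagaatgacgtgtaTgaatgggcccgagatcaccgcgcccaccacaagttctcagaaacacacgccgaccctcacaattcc
Over this stretch Scd2 differed from Scd1 at 1 base, and Scd3 and Scd4 at 2 bases each. Over the whole transcripts, 167 of the 3440 windows of 50 bases in Scd3 (4.855%) also stood in Scd1, and 86 of 3390 windows of 100 bases (2.537%) did. The deposited estimates, in which a read matching several genes can be divided among them, were not whole numbers for Scd1 in 60 libraries, for Scd2 and Scd3 in 61 and for Scd4 in 58. The small values of Scd3 and Scd4 are therefore uncertain in a tissue with this much Scd1, and the share of them that came from Scd1 reads was not tested.

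The libraries held between 19851580 and 61277576 estimated counts, and no pair of columns was identical. Summed transcripts of 11 adipocyte markers, among them Adipoq, Plin1 and Fabp4, ranged from 13466 to 48118 counts-per-million (CPM), and every library carried them. Markers of other tissues were uneven: the 8 liver markers summed to up to 1440 CPM, 7 skeletal muscle markers to up to 2084 CPM and 2 epididymis markers to up to 1180 CPM in single libraries. Cast replicates 1, 5 and 6 stood apart from all other libraries in Scd3, and the Cast fold changes printed here that lost their call or moved by 1.5 times or more without them are given both ways. In bulk tissue, fewer cells of a type and less RNA per cell cannot be told apart. The labels number the libraries of a strain without stating how each was taken, so p-values measure only the spread between these libraries.

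Scd1 was by far the most abundant desaturase and, by mean CPM, the most abundant of all tested genes. Its median over the 61 libraries was 80431 CPM, with a range from 17339 to 131456. Scd2 had a median of 1204 CPM (79.0 to 3746), Scd3 of 2.78 CPM (0.443 to 275.5) and Scd4 of 0.490 CPM (0.0221 to 1.02). Per kilobase of transcript, which allows genes to be compared, the median levels were 16645 CPM per kb for Scd1, 221 for Scd2, 0.797 for Scd3 and 0.148 for Scd4. Of the family's summed level per kilobase, Scd1 made up between 94.9% and 99.7%, with a median of 98.5%. The lowest share of Scd1, in NZO replicate 4, went with a Scd2 share of 5.10%.

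**Figure D1:**
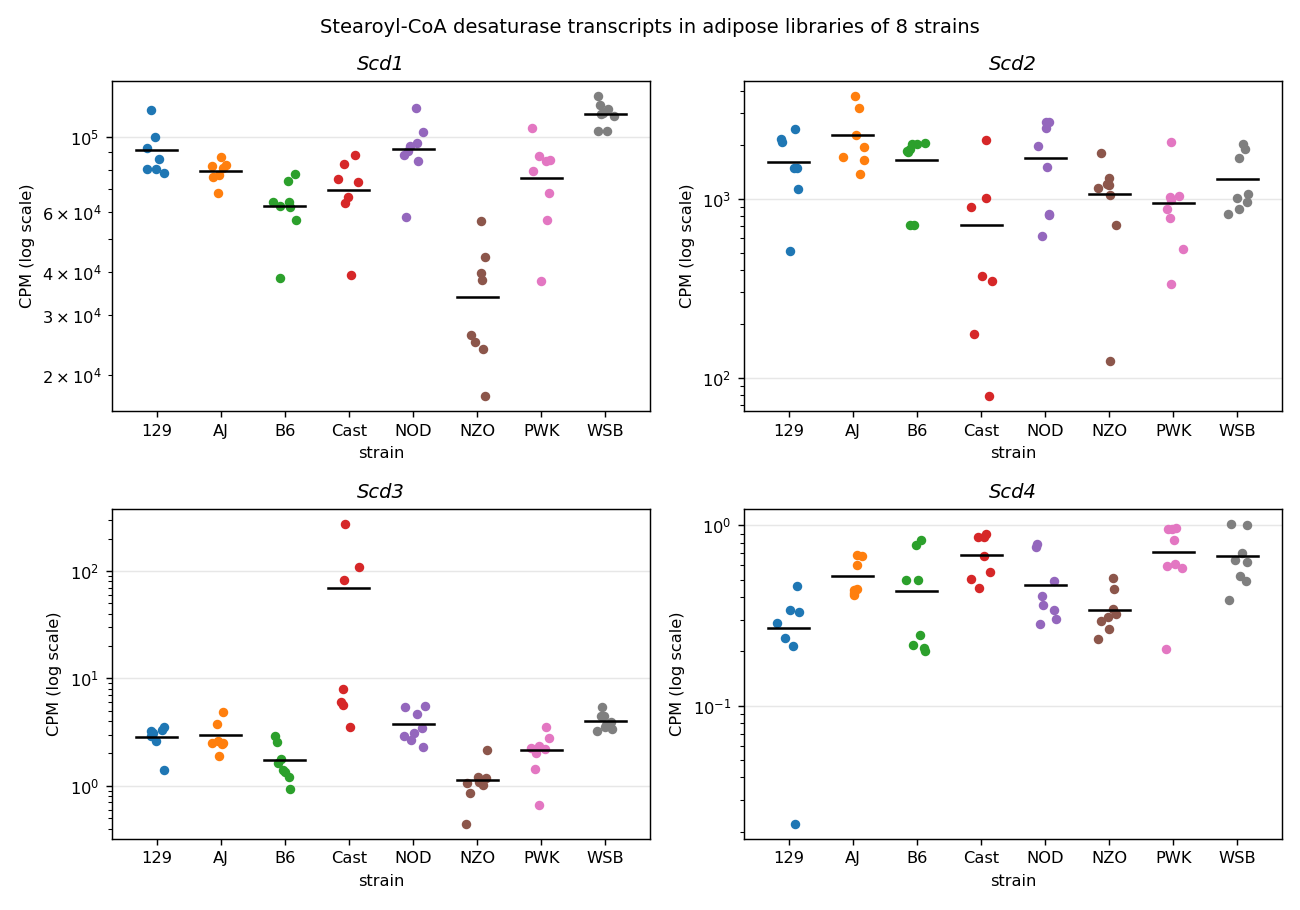
CPM of each desaturase (vertical, log scales that differ between panels) in every library, by strain. Points are libraries and bars are strain means. NZO is lowest and WSB highest for Scd1, and 3 Cast libraries stand above all others for Scd3.

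The 4 genes differed in how much of their variation lay between strains. On the log2 CPM scale strain accounted for 72.8% of the variance of Scd1, 62.5% for Scd3, 40.9% for Scd4 and 35.1% for Scd2, beside a median of 48.7% over all tested genes. Within strains, the standard deviation of log2 CPM was 0.35 for Scd1, close to the all-gene median of 0.38, but 0.93 for Scd2, 0.98 for Scd3 and 0.58 for Scd4. Scd2 was thus more variable between libraries of a strain than 87.2% of tested genes. In the edgeR F-test over the 8 strains, 89.9% of all tested genes were called at an adjusted p under 0.05, so a call here separates a gene from few others. The adjusted p was 4.85e-10 for Scd1, 0.0137 for Scd2, 2.13e-19 for Scd3 and 0.000812 for Scd4.

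Scd1 was lowest in NZO, a strain known for obesity, and highest in WSB. In NZO its level ran from 17339 to 56418 CPM with a median of 32046 (mean 33848.3 ± 12999, SD, n = 8). In WSB it ran from 103586 to 131456 CPM with a median of 116715 (mean 116292 ± 9412, SD, n = 8). The ranges of these strains did not meet, and of the 53 libraries of other strains only 3 fell inside the NZO range and 3 inside the WSB range. As a share of all counts in a library, Scd1 took 3.82% ± 1.37 (SD, n = 8) in NZO and 10.1% ± 0.922 (SD, n = 8) in WSB.

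Against the mean of the other 7 strains, Scd1 fell by 1.28 ± 0.15 (SE) on the log2 scale in NZO, a 2.43-fold difference, with all 8 libraries below the median of the others (edgeR, adjusted p = 4.11e-10). In that contrast 53.9% of all genes were called. In WSB it rose by 0.75 ± 0.13 (SE), a 1.69-fold difference, with all 8 libraries above (edgeR, adjusted p = 3.21e-06), where 49.3% of genes were called. Scaling by library total, which itself moved the median of all genes by 0.212 in NZO and -0.227 in WSB, left both calls in place, with values of -1.08 and 0.53.

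The strains between these extremes lay close together. The order of mean Scd1 was WSB, NOD, 129, AJ, PWK, Cast, B6 and NZO, with NOD at 92002 ± 17796 CPM, 129 at 91016 ± 14834, AJ at 79104 ± 5937, PWK at 75830 ± 21120, Cast at 69862 ± 16035 and B6 at 62502 ± 11847 (SD, n = 7 or 8). Between neighbours in this order, only B6 and NZO differed past the threshold, by 0.88 ± 0.18 (SE) on the log2 scale (edgeR, adjusted p = 0.000123). WSB exceeded NOD by 0.34 ± 0.18 (SE), which missed it (edgeR, adjusted p = 0.128). Of the 28 pairs of strains 12 were called for Scd1, 7 of them with NZO and 5 with WSB, 1 of these pairing the 2, and B6 minus NOD; over all genes 37.1% of comparisons of a gene in a pair were called. Scd1 in NOD was 0.37 ± 0.13 (SE) above the mean of the others (edgeR, adjusted p = 0.0355; 26.5% of genes called). That call was lost on leaving out NOD replicate 2, 4, 5, 7 or 8, with values from 0.30 to 0.37.

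Between NZO and WSB, adipocyte markers went the same way as Scd1 and macrophage markers the opposite way. The summed adipocyte markers were lowest in NZO, at 17422 to 29553 CPM (mean 24087 ± 4814, SD, n = 8), and highest in WSB, at 35427 to 47291 CPM (mean 42609 ± 3657, SD, n = 8). The strains between them were not in the order of Scd1, with mean adipocyte sums of 29965 CPM in AJ and 31427 CPM in B6. The 6 macrophage markers, among them Adgre1 and Cd68, summed to 1665 to 4833 CPM in NZO and to 464 to 778 CPM in WSB. Their part in the Scd1 difference was not tested.

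**Figure D2:**
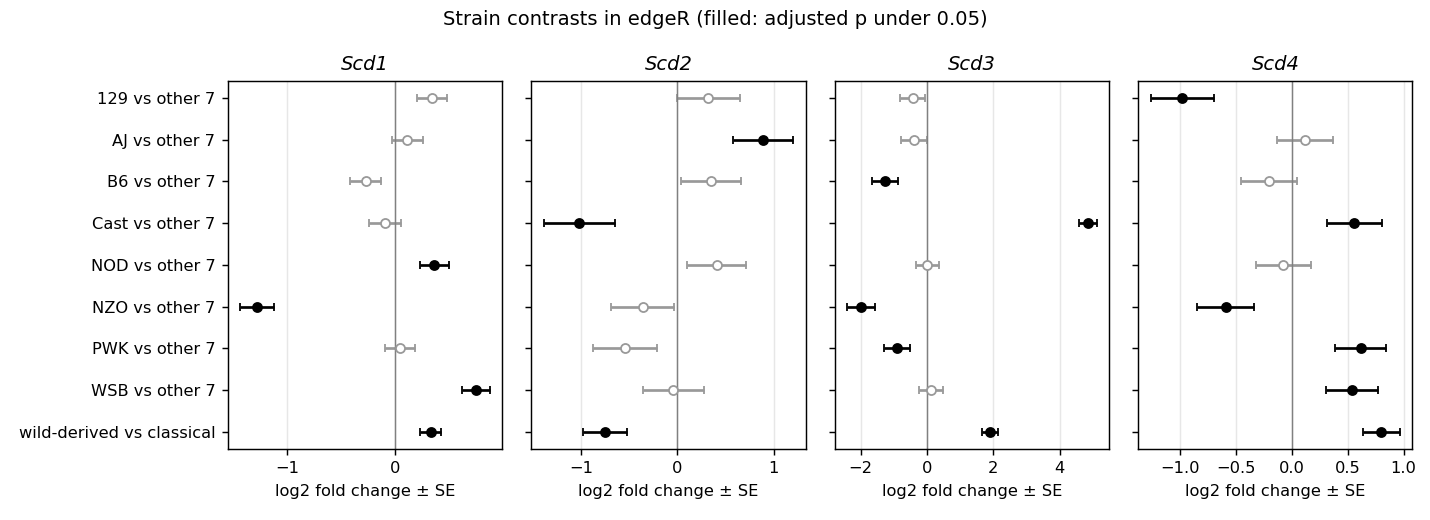
Log2 fold change (horizontal, with its standard error; scales differ between panels) of each desaturase in each strain against the mean of the other 7 strains, and in wild-derived against classical strains. Filled points passed an adjusted p of 0.05. Scd1 separates NZO and WSB, Scd3 separates Cast, and Scd4 is higher in the wild-derived strains.

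Scd2 showed another order of strains, with AJ highest and Cast lowest. In AJ it ran from 1369 to 3746 CPM with a median of 1941 (mean 2272 ± 887, SD, n = 7). In Cast it ran from 79.0 to 2120 CPM with a median of 372 (mean 715 ± 712, SD, n = 7), so the Cast libraries included the lowest of all 61. AJ exceeded the mean of the other 7 strains by 0.89 ± 0.31 (SE) on the log2 scale, with 7 of 7 libraries above the median of the others (edgeR, adjusted p = 0.0299; 23.0% of genes called). Without AJ replicate 2, 3 or 5 the value was 0.89, 0.72 or 0.78 and the call was lost. In Cast, Scd2 fell by 1.02 ± 0.37 (SE), with 6 of 7 libraries below (edgeR, adjusted p = 0.0157; 56.2% of genes called). That call rested on few libraries: without Cast replicate 1 the value was -0.82, without replicate 5 it was -0.85, and neither passed. Without Cast replicates 1, 5 and 6 the value was -0.40 (edgeR, adjusted p = 0.432).

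No neighbouring strains differed past the threshold in Scd2. The other means were 1697 ± 876 CPM in NOD, 1636 ± 575 in B6, 1612 ± 670 in 129, 1291 ± 494 in WSB, 1065 ± 483 in NZO and 952 ± 513 in PWK (SD, n = 7 or 8). Of the 28 pairs, 6 were called for Scd2, beside 37.1% of such comparisons over all genes. Of these 6, 4 were with Cast and 3 with AJ, which includes the pair of these. Without Cast replicates 1, 5 and 6 the count was 2. NZO, the strain lowest in Scd1, had a Scd2 value of -0.36 ± 0.33 (SE) against the others (edgeR, adjusted p = 0.358). NZO replicate 8 held 124 CPM of Scd2 while the other 7 NZO libraries held 714 to 1789 CPM. The ratio of Scd1 to Scd2 per kilobase therefore varied widely, from 18.6 in NZO replicate 4 to 1189 in Cast replicate 1, with a median of 67.0.

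Scd3 was a minor transcript in every strain, with its highest levels in Cast. Of the family's summed level per kilobase it made up at most 0.569%, in Cast replicate 6. The 7 Cast libraries held 110, 5.60, 5.96, 82.7, 276, 8.01 and 3.49 CPM (replicates 1, 2, 3, 5, 6, 7 and 8), and the 54 libraries of the other strains held between 0.443 and 5.58 CPM. Replicates 1, 5 and 6 lay above every other library, and the remaining 4 reached from inside the range of the other strains to just above it. In estimated counts these 3 libraries held 2942, 4146 and 12245, while the highest of the other strains' means was 142 counts in NOD. Per kilobase, Scd3 exceeded Scd2 in 2 of the 61 libraries, Cast replicates 1 and 6, where the ratio of Scd2 to Scd3 was 0.459 and 0.864. In Cast replicate 5 the ratio was 1.36, and the other 4 Cast libraries had 39.7 to 169.

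In Cast, Scd3 rose by 4.84 ± 0.27 (SE) on the log2 scale, a 28.7-fold difference, with 7 of 7 libraries above the median of the others (edgeR, adjusted p = 2.46e-22). Without replicates 1, 5 and 6 the remaining 4 libraries were 1.24 above the other strains (edgeR, adjusted p = 1.77e-05). Leaving out replicate 6 alone gave 3.88. The size of the Cast difference thus depended on these libraries, and its direction and call did not.

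The 3 Cast libraries with high Scd3 differed from the other 4 Cast libraries in some genes and overlapped them in others. They were the 3 lowest of Cast in Dgat2, at 221, 323 and 624 CPM against 659 to 2866 CPM in the other 4. Their Scd2 levels were 79.0, 175 and 372 CPM for replicates 1, 5 and 6, beside 348, 1010, 2120 and 903 CPM in replicates 2, 3, 7 and 8. Their Scd1 levels, at 83216, 39151 and 66370 CPM, overlapped those of the other 4, at 63887 to 88204 CPM. Adipocyte markers summed to 13466 CPM in replicate 5 and 21330 CPM in replicate 6, the lowest of the Cast libraries, but to 45382 CPM in replicate 1. Scd3 is known to be expressed in sebaceous gland and skin. The 7 analysed markers of these tissues summed to 40.2, 10.6 and 15.3 CPM in replicates 1, 5 and 6. In the other 4 they summed to 13.5 to 27.2 CPM, against up to 64.0 CPM in AJ. Of these 7, Mogat1 and Awat2 are also counted below among the genes that esterify the products, so the sum does not measure skin alone. Of 7 genes listed for mammary epithelium only 3, Krt8, Krt18 and Epcam, were among the genes read. These epithelial genes summed to 18.8, 85.7 and 104 CPM in these 3 libraries and to 21.1 to 48.4 CPM in the other 4. Csn2, Csn1s1, Csn3 and Wap of that list were absent, so the sums do not single out mammary tissue. The part of these cell types in the Scd3 levels was not tested.

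**Figure D3:**
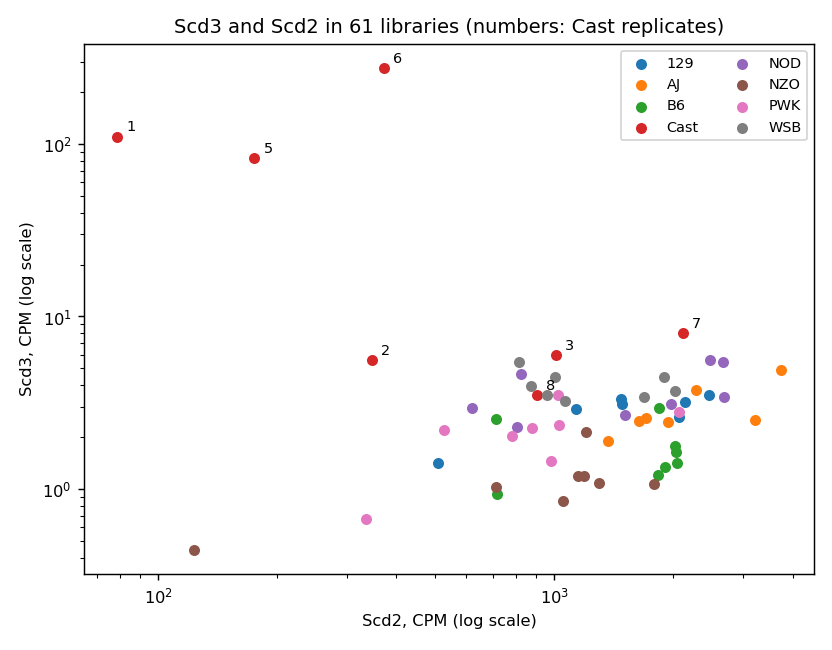
Scd3 (vertical) against Scd2 (horizontal), both as CPM on log scales, in the 61 libraries coloured by strain, with the replicate number beside each Cast library. Cast replicates 1, 5 and 6 lie apart at 82.7 to 276 CPM of Scd3, with 79.0 to 372 CPM of Scd2.

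Outside Cast, Scd3 was highest in WSB, at 4.01 ± 0.731 CPM (SD, n = 8), and lowest in NZO, at 1.12 ± 0.479 CPM (SD, n = 8). NOD had 3.76 ± 1.28, AJ 2.94 ± 1.02, 129 2.86 ± 0.700, PWK 2.15 ± 0.846 and B6 1.72 ± 0.686 CPM. Of neighbouring strains in this order only Cast and WSB differed past the threshold, by 4.13 ± 0.52 (SE) on the log2 scale (edgeR, adjusted p = 2.93e-09). Of the 28 pairs 12 were called, 7 of them with Cast, beside 37.1% of such comparisons over all genes. Against the mean of the other 7, which includes Cast, Scd3 fell by 1.98 ± 0.42 (SE) in NZO (edgeR, adjusted p = 7.50e-05) and by 1.27 ± 0.39 (SE) in B6 (edgeR, adjusted p = 0.0121; 26.3% of genes called). With Cast replicates 1, 5 and 6 left out, the values were -1.46 in NZO, -0.76 in B6, 0.64 in WSB and 0.53 in NOD, all of which passed. Scd3 in PWK was at -0.90 ± 0.38 (SE) (edgeR, adjusted p = 0.0496; 43.6% of genes called), a call lost in 48 of the 61 fits that left out 1 library, and without these 3 libraries at -0.39 (edgeR, adjusted p = 0.106).

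The ratio of Scd1 to Scd3 differed less between the other strains than between them and Cast. The mean ratio of Scd1 to Scd3 per kilobase lay between 19394 in NOD and 28977 in B6 in the 7 strains other than Cast, and was 5945 in Cast. Single libraries outside Cast had 7534 to 47737. The lowest single ratio was 174, in Cast replicate 6. In the strains other than Cast, the median of Scd3 in a strain was 43.0 to 136 estimated counts, beside medians of 1352340 to 3913730 for Scd1.

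Scd4 was close to the limit of detection, with 1.15 to 48.3 estimated counts per library. Its highest means were in the wild-derived strains, at 0.711 ± 0.265 CPM in PWK (SD, n = 8), 0.685 ± 0.190 in Cast (SD, n = 7) and 0.675 ± 0.232 in WSB (SD, n = 8). The lowest were 0.270 ± 0.136 CPM in 129 (SD, n = 7) and 0.340 ± 0.0921 in NZO (SD, n = 8), with AJ at 0.5257 ± 0.125, NOD at 0.4664 ± 0.199 and B6 at 0.433 ± 0.258 CPM between them. No neighbouring strains in this order differed past the threshold. Of the pairs, 6 of 28 were called, beside 37.1% of such comparisons over all genes, each between 129 or NZO and a wild-derived strain. In 129, Scd4 fell by 0.98 ± 0.28 (SE) on the log2 scale, with 7 of 7 libraries below the median of the others (edgeR, adjusted p = 0.00964; 18.6% of genes called). The calls in PWK (0.62 ± 0.23, adjusted p = 0.0245), Cast (0.56 ± 0.24, adjusted p = 0.0456), WSB (0.54 ± 0.23, adjusted p = 0.0471) and NZO (-0.59 ± 0.26, adjusted p = 0.0462) by edgeR stood near the threshold. On leaving out single libraries they were lost in 4, 24, 31 and 26 of the 61 fits. Without Cast replicates 1, 5 and 6 the Cast value was 0.35 and did not pass. The 4 analysed markers of heart muscle, where Scd4 is known, summed to between 0 and 9.95 CPM, and their part in the Scd4 values was not tested.

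Taken as groups, wild-derived strains had more Scd1, Scd3 and Scd4 and less Scd2 than classical strains, in a contrast where 64.4% of genes were called. Scd4 was 0.80 ± 0.17 (SE) higher on the log2 scale, with 22 of 23 wild-derived libraries above the median of the classical ones (edgeR, adjusted p = 3.40e-05). Scd2 fell by 0.75 ± 0.23 (SE), with 18 of 23 libraries below (edgeR, adjusted p = 0.00342), and by 0.54 without Cast replicates 1, 5 and 6 (edgeR, adjusted p = 0.0249). Scd3 was 1.90 ± 0.24 (SE) higher (edgeR, adjusted p = 1.30e-09), and 0.69 higher without those 3 libraries (edgeR, adjusted p = 2.68e-05). Scd1 was 0.33 ± 0.10 (SE) higher, with 15 of 23 libraries above (edgeR, adjusted p = 0.00208), and with library totals as the only scaling the value was 0.17 (edgeR, adjusted p = 0.0806). The classical group includes NZO, which was at -1.28 in Scd1, and the contrast was not run without it. Of the wild-derived strains only WSB was called higher in Scd1 against the other 7 strains. PWK and Cast had values of 0.05 ± 0.14 and -0.09 ± 0.15 (SE). Their mean Scd1, at 75830 and 69862 CPM, lay below that of 3 classical strains, AJ (79104), 129 (91016) and NOD (92002). The group values of Scd3 and Scd2 did not hold in each wild-derived strain either: Scd3 was at -0.90 in PWK, and Scd2 was at -0.04 in WSB (edgeR, adjusted p = 0.926). The strains are 3 and 5, and libraries of a strain are not independent draws of wild-derived or classical mice.

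Sex is not labelled, so the level of Xist, the RNA that coats the inactive X chromosome, was used as a covariate. The lowest library of a strain held 0.0275 to 0.378 CPM of it and the highest 527 to 718 CPM. The slopes of log2 CPM on log2 Xist within strains were -0.0045 ± 0.010 (SE) for Scd1, -0.03 ± 0.02 for Scd2, -0.02 ± 0.03 for Scd3 and 0.02 ± 0.02 for Scd4. None passed, with edgeR adjusted p of 0.765, 0.309, 0.559 and 0.443, although 36.6% of all genes did, 17.7% with a positive and 18.9% with a negative slope. A difference of slopes between strains was not called for any of them either (edgeR, adjusted p = 0.180, 0.463, 0.357 and 0.127), where 41.3% of genes were. By contrast, 11 of 14 genes of fatty acid synthesis had positive slopes that passed, the steepest being Elovl6 at 0.26 ± 0.03 (SE) and Acaca at 0.14 ± 0.02 (SE); the difference between their slopes and that of Scd1 was not tested. Cast replicate 1 had 520 CPM of Xist and Cast replicates 5 and 6 had 0.359 and 0.472 CPM, so high Scd3 occurred at both ends of the Xist range. The slopes of Scd3 in single strains ran from -0.18 ± 0.07 (SE) in Cast to 0.07 ± 0.08 (SE) in AJ.

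The enzymes that supply Scd1 with saturated acyl-CoA were also lower in NZO and higher in WSB. Of the 14 genes listed for fatty acid synthesis, from citrate export to acyl-CoA, 8 fell and 0 rose in NZO, with a median log2 fold change of -1.17 beside -0.02 over all genes; 26.6% of all genes fell and 27.2% rose there. Thrsp, a regulator of lipogenesis, fell by 3.43 ± 0.51 (SE), and Elovl6, which lengthens palmitoyl-CoA to stearoyl-CoA, by 2.48 ± 0.70 (SE). Elovl6 held 43.7 ± 26.9 CPM in NZO (SD, n = 8). Its means in the other strains averaged 410 CPM but ran from 83.2 CPM in NOD to 1292 CPM in PWK. In WSB 12 of the 14 rose and 0 fell, with a median of 1.13, where 25.6% of all genes rose and 23.7% fell; 1 fell on leaving out WSB replicate 3 or Cast replicate 2, 3, 7 or 8. Elovl6 rose by 2.36 ± 0.48 (SE), though its WSB libraries ran from 23.5 to 2010 CPM, and Acacb, an acetyl-CoA carboxylase, by 2.28 ± 0.25 (SE). On the same scale these changes exceeded the -1.28 and 0.75 of Scd1, but these genes were named for having the largest changes of the list. The list median of -1.17 in NZO was smaller in size than the -1.28 of Scd1. In WSB the median of 1.13 was larger than 0.75. The difference between genes was not tested.

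Not every strain followed that pattern, as in NOD, PWK and Cast. In NOD, where Scd1 was 0.37 above the other strains, 4 of the 14 synthesis genes fell and 0 rose, where 11.8% of all genes fell and 14.7% rose. Without NOD replicate 1, 2 or 4 the number that fell was 2, 1 or 2. Acaca, an acetyl-CoA carboxylase, fell by 1.25 ± 0.41 (SE), and Acly, which makes cytosolic acetyl-CoA from citrate, by 1.29 ± 0.49 (SE), a call lost in 14 of the 61 fits that left out 1 library. In PWK 7 of the 14 rose and 0 fell, where 43.6% of all genes were called. Scd1 was at 0.05 there (edgeR, adjusted p = 0.804). Without PWK replicate 2 or 7 the number that rose was 3 or 4. In Cast, 4 rose and 1 fell, where 29.6% of all genes rose and 26.6% fell, so the share that rose was near that over all genes. Scd1 was at -0.09 in Cast (edgeR, adjusted p = 0.642). Acacb rose there by 1.25 ± 0.28 (SE) and Thrsp by 1.31 ± 0.37 (SE), or by 0.89 without Cast replicate 7 (edgeR, adjusted p = 0.0526). Acss2, which activates acetate, fell by 0.98 ± 0.41 (SE), a call lost without Cast replicate 1, 2, 5, 6 or 8, and was at -0.35 without replicates 1, 5 and 6 (edgeR, adjusted p = 0.566). In wild-derived against classical strains 10 of the 14 rose and 0 fell, where 33.1% of all genes rose and 31.2% fell.

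**Figure D4:**
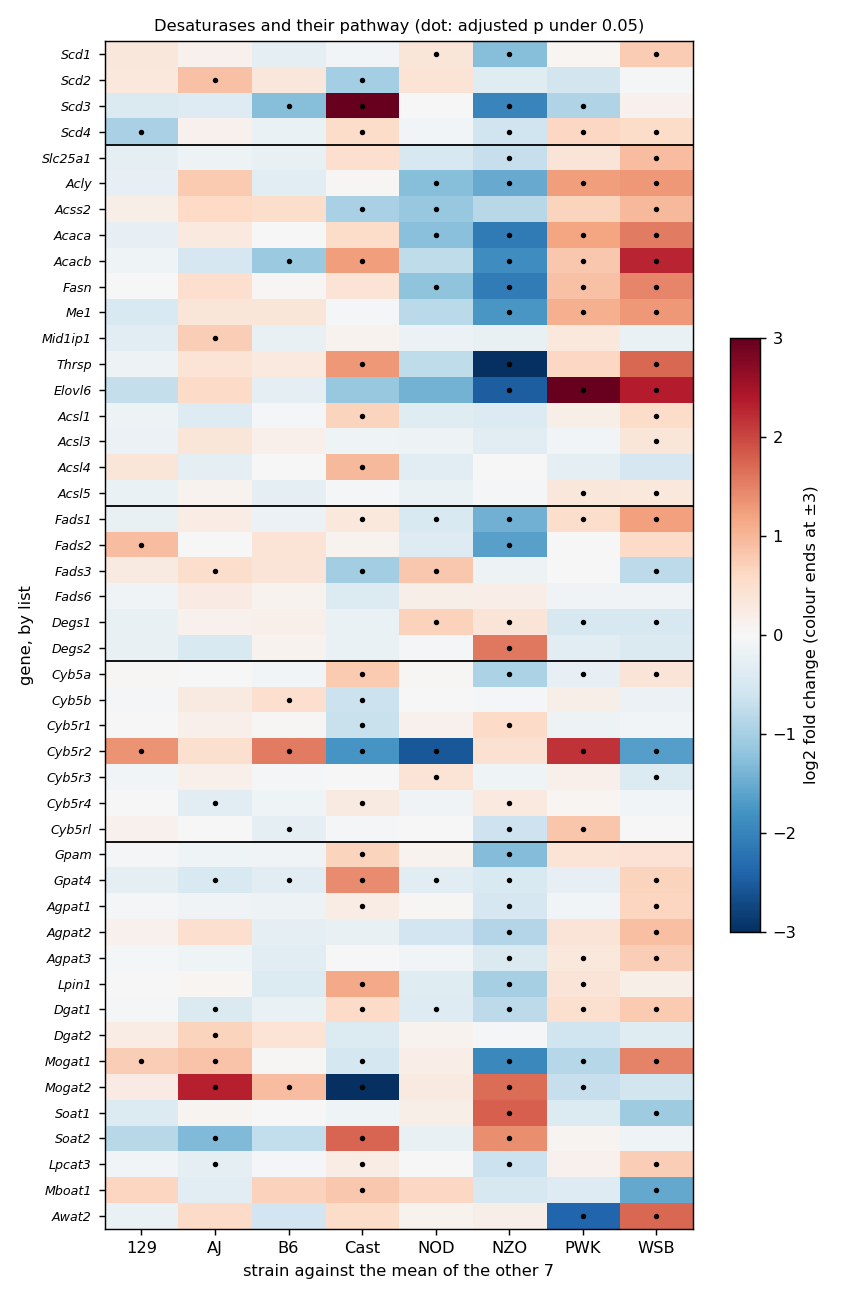
Log2 fold change (colour, ending at 3 in either direction) of the 4 desaturases and of 4 gene lists in each strain (horizontal) against the mean of the other 7. Dots mark an adjusted p under 0.05. Most rows of fatty acid synthesis are blue in NZO and red in WSB, as Scd1 is.

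Fatty acid elongases followed the synthesis genes in part, with 8 of 13 lower and 2 higher in NZO and 8 higher and 1 lower in WSB (Elovl6 is on both lists), beside 26.6% of all genes lower and 27.2% higher in NZO and 25.6% higher and 23.7% lower in WSB. On leaving out NZO replicate 1, 2, 3, 4, 5 or 8, 1 and not 2 was higher in NZO. Elovl3, which makes very long acyl chains and is also a marker of brown fat, fell by 3.49 ± 0.90 (SE) in NZO and rose by 3.30 ± 0.53 (SE) in WSB and by 3.37 ± 0.55 (SE) in Cast. The brown fat markers, a list that holds Elovl3, summed to 154 ± 38.6 CPM in NZO (SD, n = 8), 940 ± 975 in WSB (SD, n = 8) and 945 ± 906 in Cast (SD, n = 7); their part in the Elovl3 difference was not tested. Elovl1 rose in NZO by 0.55 ± 0.07 (SE), and Hacd4, an acyl-CoA dehydratase of elongation, fell in WSB by 0.81 ± 0.17 (SE).

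Of the 6 other desaturases, 2 were higher and 2 lower in NZO, shares near those over all genes, of which 27.2% rose and 26.6% fell. Fads1 and Fads2, which place double bonds nearer the carboxyl end of polyunsaturated fatty acids, fell in NZO by 1.45 ± 0.15 (SE) and 1.64 ± 0.33 (SE), and Degs1 and Degs2, which act on sphingolipids, rose by 0.40 ± 0.09 (SE) and 1.59 ± 0.17 (SE). In WSB Fads1 rose by 1.23 ± 0.12 (SE), while Fads3 fell by 0.80 ± 0.20 (SE) and Degs1 by 0.48 ± 0.10 (SE), so 1 of 6 was higher and 2 were lower, where 25.6% of all genes rose and 23.7% fell; 2 were higher on leaving out 129 replicate 6 or 9, AJ replicate 3, B6 replicate 6 or NOD replicate 6. Among 7 electron donors of the desaturase reaction, 2 rose and 2 fell in NZO, shares near those over all genes, and 1 rose and 2 fell in WSB. Cyb5a, the cytochrome b5 of the endoplasmic reticulum, fell by 0.96 ± 0.10 (SE) in NZO, from 298 CPM elsewhere to 150 ± 28.4 CPM (SD, n = 8), and rose by 0.39 ± 0.09 (SE) in WSB and by 0.79 ± 0.09 (SE) in Cast, or by 0.53 in Cast without replicates 1, 5 and 6.

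Of 21 genes that regulate desaturase transcription, 11 fell and 3 rose in NZO, 10 rose and 0 fell in WSB, and 14 rose and 2 fell in Cast. Over all genes 26.6% fell and 27.2% rose in NZO, 25.6% rose and 23.7% fell in WSB, and 29.6% rose and 26.6% fell in Cast. Without Cast replicates 1, 5 and 6 the Cast counts were 8 higher and 3 lower. In NZO, Ppara, a nuclear receptor of fatty acids, fell by 1.04 ± 0.39 (SE), or by 0.94 without NZO replicate 4 (edgeR, adjusted p = 0.0521). Mlxipl, which encodes the glucose-responsive factor ChREBP, fell by 0.99 ± 0.29 (SE), while Nfya, a subunit of the CCAAT-binding factor, rose by 0.60 ± 0.06 (SE). In WSB Ppargc1b, a coactivator, rose by 1.30 ± 0.29 (SE) and Ppara by 1.11 ± 0.33 (SE), or by 0.78 without WSB replicate 9 (edgeR, adjusted p = 0.0608). In Cast, the 2 members of the INSIG pair, which hold back the processing of SREBP, went opposite ways: Insig2 rose by 1.27 ± 0.14 (SE) and Insig1 fell by 1.10 ± 0.22 (SE). Insig2 was highest in Cast replicate 1, at 413 CPM beside a Cast median of 81.3 CPM, and without that library its value was 0.72. Without Cast replicates 1, 5 and 6 the values were 0.55 for Insig2 (edgeR, adjusted p = 4.95e-06) and -0.63 for Insig1 (edgeR, adjusted p = 0.0305).

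Genes that esterify the products had 9 lower and 3 higher of 15 in NZO, 8 higher and 2 lower in WSB, and 8 higher and 2 lower in Cast, where the shares over all genes were 26.6% lower and 27.2% higher, 25.6% higher and 23.7% lower, and 29.6% higher and 26.6% lower. Without Cast replicate 3 the number higher in Cast was 5, and without replicates 1, 5 and 6 it was 6, with 1 lower; leaving out replicate 1, 2, 3, 5 or 6 alone also gave 1 lower. Mogat1, a monoacylglycerol acyltransferase, fell by 1.93 ± 0.24 (SE) in NZO and rose by 1.48 ± 0.18 (SE) in WSB, and Gpam, the mitochondrial glycerol-3-phosphate acyltransferase, fell by 1.30 ± 0.22 (SE) in NZO. Soat1, which makes cholesteryl esters and is strong in macrophages, went the other way, rising by 1.78 ± 0.17 (SE) in NZO and falling by 1.06 ± 0.22 (SE) in WSB. In Cast, Gpat4 of the endoplasmic reticulum rose by 1.42 ± 0.09 (SE) and Mogat2 fell by 4.22 ± 0.37 (SE), from 10.9 CPM elsewhere to 0.476 ± 0.213 CPM (SD, n = 7).

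Genes next to the cluster were read for comparison, 4 tested protein-coding genes on either side. The strain effects of Scd1 and Scd3 were not common to all of them. Pkd2l1, which encodes a cation channel and lies 10845 bases before Scd3, followed Scd3 in Cast: its 7 libraries held 4.94, 0.476, 0.224, 30.4, 86.6, 1.57 and 0.260 CPM (replicates 1, 2, 3, 5, 6, 7 and 8), and the 54 others held at most 0.621 CPM. Replicates 1, 5 and 6 were thus highest for both genes. Pkd2l1 rose in Cast by 7.56 on the log2 scale (edgeR, adjusted p = 2.00e-20), and by 2.77 without these 3 libraries (edgeR, adjusted p = 9.36e-05). B6 was the only other strain called, at -3.39 (edgeR, adjusted p = 0.00565). Its libraries held only 0 to 0.0499 CPM, near the floor, and the mean of the others included Cast. The next gene out, Bloc1s2, had a Cast value of -0.12 that did not pass (edgeR, adjusted p = 0.292), but passed at -0.39 without these 3 libraries (edgeR, adjusted p = 0.00253) and also without Cast replicate 5 alone.

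On the Scd1 side the first neighbour was Wnt8b, a secreted signal at 0.567 CPM on average, with a Cast value of -2.90. Sec31b, a component of the vesicle coat that leaves the endoplasmic reticulum, came next. It resembled Scd1 in NZO, at -1.37 (edgeR, adjusted p = 1.37e-10), and in WSB, at 0.77 (edgeR, adjusted p = 2.80e-06). Unlike Scd1, Sec31b was also called in PWK, at 0.61 (edgeR, adjusted p = 0.000183), and in B6, at -0.59 (edgeR, adjusted p = 0.00187). Its levels were 5.38 ± 1.87 CPM in NZO and 19.7 ± 2.53 CPM in WSB (SD, n = 8 each). Ndufb8, a subunit of respiratory complex I, also was lower in NZO, at -0.61 (edgeR, adjusted p = 0.00233), and higher in WSB, at 0.80 (edgeR, adjusted p = 1.88e-05). Unlike Scd1, it was higher in PWK too, at 0.72 (edgeR, adjusted p = 0.000113). Hif1an, Chuk, Cwf19l1 and Bloc1s2 had values between -0.30 and 0.28 in every strain when all libraries were used.

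The genes most like each desaturase were searched among 10685 genes by Pearson's r of log2 CPM over the 61 libraries, given here as a description. For Scd1 they were Fam213a (r = 0.90), Ginm1 (0.88), Gna11 (0.86), Chchd6 (0.85) and Amy1 (0.84). Fam213a, a peroxiredoxin-like protein, had 115 ± 37.4 CPM in NZO and 932 ± 44.3 CPM in WSB (SD, n = 8 each). Once strain means were taken out, Ginm1 (0.78), Il17rc (0.77), Nckap1 (0.77), Emc2 (0.75) and Fbxl4 (0.75) led. All points share the scaling of their library, and in Cast replicate 5, the lowest Cast library for Scd1, Fam213a was lowest too, at 121 CPM.

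Scd2 had 1 close companion, Dgat2, which catalyses the last step of triglyceride synthesis. Their r was 0.92 over the 61 libraries, 0.92 within strains and 0.91 within strains without Cast replicates 1, 5 and 6. NZO replicate 8, the lowest NZO library for Scd2 at 124 CPM, held 161 CPM of Dgat2 while the NZO median was 1297 CPM, and Cast replicate 1, lowest of all in Scd2, held 221 CPM. In Cast replicate 7, the highest Cast library for Scd2, Dgat2 was at 2866 CPM. In strain contrasts Dgat2, like Scd2, was higher in AJ, by 0.67 ± 0.24 (SE; edgeR, adjusted p = 0.0357), a call lost without AJ replicate 1, 3, 5, 6 or 8, and lower in wild-derived strains, by 0.63 ± 0.17 (SE; edgeR, adjusted p = 0.00126). The next most like were Mvk, mevalonate kinase of cholesterol synthesis (0.83), Dynll2 (0.83), Unc119 (0.82) and Vac14 (0.81), and within strains Sc5d, a desaturase of sterol synthesis (0.81), and Gnptab (0.81).

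**Figure D5:**
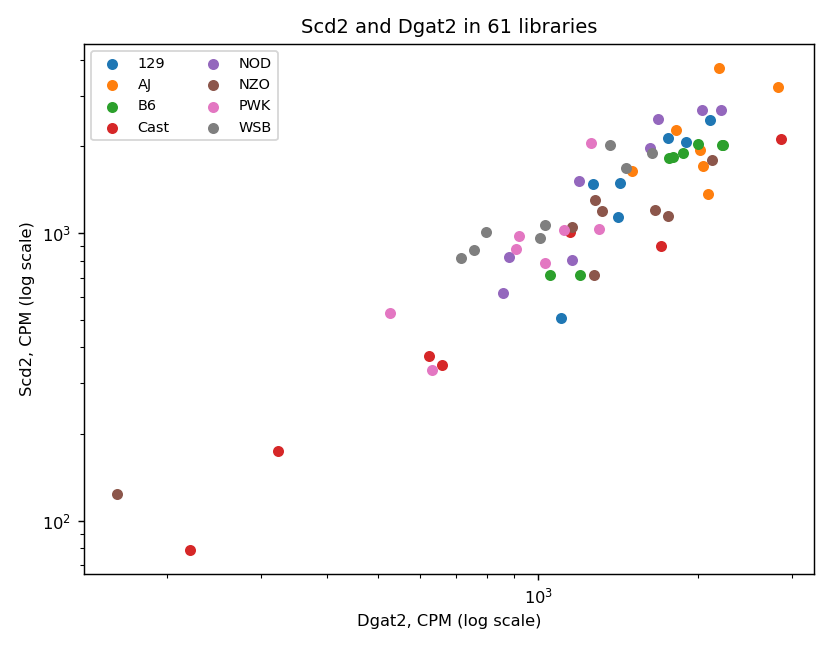
Scd2 (vertical) against Dgat2 (horizontal), both as CPM on log scales, in the 61 libraries coloured by strain. The points form 1 band (r = 0.92) from Cast and NZO libraries at the low end, such as NZO replicate 8 with 124 CPM of Scd2 and 161 CPM of Dgat2.

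For Scd3 the most like genes were Slc35e1 (0.88), Hdlbp (0.87), Tma16 (0.87), Gabarapl1 (0.84) and Atg13 (0.84). Without Cast replicates 1, 5 and 6 these were 0.56, 0.47, 0.49, 0.70 and 0.49. Within strains the most like were Hdlbp (0.83), Slc35e1 (0.81), Tma16 (0.80), Zpr1 (0.79) and Atg13 (0.79), and without the 3 Cast libraries these were 0.68, 0.69, 0.70, 0.64 and 0.69. The 3 libraries were the highest of Cast for each of these 5 genes. Hdlbp, an RNA-binding protein, held 1295, 1262 and 1634 CPM in Cast replicates 1, 5 and 6 and 564 to 649 CPM in the other 4 Cast libraries. Slc35e1 held 130, 167 and 150 CPM in these 3 and 59.8 to 75.9 CPM in the other 4. Gabarapl1, of the autophagy machinery, reached 1411 CPM in Cast, and its Cast mean was 588 ± 405 CPM (SD, n = 7) against 301 ± 37.1 CPM in WSB (SD, n = 8), the next highest.

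The desaturases were also set against each other within strains, in 6 pairings over the 61 libraries with 100000 permutations. Scd1 and Scd2 had Pearson's r of 0.32 (permutation p = 0.0443, adjusted 0.266) and Spearman's rho of 0.41 (permutation p = 0.00248, adjusted 0.00744). Without the 2 libraries farthest in Scd1 the r was 0.30. Scd1 and Scd3 had r of 0.14 (permutation p = 0.426, adjusted 0.639) and rho of 0.47 (permutation p = 0.00052, adjusted 0.00312), and r without the 2 farthest was 0.05. Without Cast replicates 1, 5 and 6 their r was 0.28, and in single strains it ran from -0.32 in Cast to 0.85 in PWK. Scd2 and Scd3 had r of -0.13 (permutation p = 0.595, adjusted 0.714) and rho of 0.34 (permutation p = 0.013, adjusted 0.0259), with r of -0.68 in Cast and up to 0.86 in 129. Pooled within strains, the 3 rank correlations thus passed after adjustment while no r did, and the pooled r of Scd2 with Scd3 depended on Cast: it was 0.12 without its replicates 1, 5 and 6. The 3 pairings with Scd4 had r from -0.15 to 0.13, none of which passed.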

How the data were processed

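For 21169 genes in 61 adipose libraries the authors deposited expected counts, 21.1% of them not whole within 1e-06, and log2 values made from them by the variance-stabilising transformation of DESeq2, which compresses differences of low genes. Genome build GRCm38 and DESeq2, with no version, are named in the submitters' processing notes. The aligner, the counting tool and the read length are not given in the sources used here. Libraries were poly(A)-selected, per the labels' protocols.

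Expected counts were rounded, filtered with filterByExpr by strain (18603 genes tested, 2566 set aside), given TMM factors and modelled by robust quasi-likelihood (edgeR 4.0.16, R 4.3.3), a mean for each strain. The contrasts were an F-test over strains, a strain minus the other 7 strains weighted equally, wild-derived against classical strains, 28 pairs and a slope on log2 Xist with strain means. Calls need a Benjamini-Hochberg adjusted p under 0.05 over all genes of a contrast, and tests are 2-sided. CPM use TMM factors, and log2 CPM add a prior count of 2. For Xist and sums of markers, the TMM factors apply to library totals over all genes in the table. Levels per kilobase use the principal transcript of GENCODE vM21, from which the printed sequences come. Alternatives used other scalings, filters, DESeq2 1.42.0, limma 3.58.1 on the deposited log2 values, a replicate block, Xist as covariate and each library left out.

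The members and gene lists were chosen with earlier results of these data known, so no list's direction is independent evidence. The text names all desaturases, per list and contrast up to 2 called genes with the largest change each way, 4 tested neighbours each side, and the 5 genes most like each desaturase over libraries and within strains (mean of at least 5 CPM). The search for like genes left out predicted genes and Scd4, which is under 1 CPM. The sums of estimated counts limit precision for Scd4, and the scripts were tested on simulated data.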

Additional observations from a re-analysis of the deposited data

Results flagged for a closer look

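In 32 groups of libraries (4 genes in 8 strains), a library at the end of its group was compared with the rest by Dixon's ratio, which chance passes in about 1 of 20 groups. The test picked out 4 libraries. Cast replicate 6 held 275.5 CPM of Scd3, beside 110 CPM in the next highest Cast library. NZO replicate 6 held 2.15 CPM of Scd3, and the next highest NZO library 1.20 CPM; the same library had the highest Scd1 of its strain, at 56418 CPM. Replicate 3 of 129 held 1.41 CPM of Scd3, below 2.61 CPM in the next lowest, and was also the lowest of its strain in Scd1 and Scd2, at 78279 and 508 CPM. PWK replicate 3 held 2062 CPM of Scd2, and the next highest PWK library 1030 CPM; it also had the highest Scd1 of its strain, at 106194 CPM. Scd2 of NZO replicate 8, at 124 CPM, was not picked out by this test.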

How the results depend on the processing

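No desaturase result reversed its sign past the threshold under any alternative. Among listed and neighbouring genes, Acsl4 (-0.40), Nfyb (-0.21) and Cwf19l1 (-0.027) in Cast and Acsl4 in wild-derived strains (-0.37) reversed without Cast replicates 1, 5 and 6. The falls of Scd1 and Scd3 in NZO, the rises of Scd1 in WSB and of Scd3 in Cast and the excess of Scd4 in wild-derived strains passed in each that tested them. Scaling by library total put Scd1 in 129 past the threshold (0.36), as DESeq2 did (0.35), and took away Scd1 in wild-derived strains (0.17) and Scd4 in Cast (0.52), NZO (-0.38) and WSB (0.33). Limma on the deposited values lost Scd1 in NOD (0.38) and Scd3 in PWK (-0.41). With no filter, Scd3 in PWK (-0.90) and Scd4 in Cast (0.55), NZO (-0.59) and WSB (0.54) were lost. With Xist as covariate Scd3 in PWK was lost (-0.90), and with scaling factors made without the desaturases Scd4 in NZO (-0.58). Without Cast replicates 1, 5 and 6, chosen after seeing the data, Scd2 in Cast (-0.40), Scd3 in PWK (-0.39) and Scd4 in Cast (0.35) and NZO (-0.56) were lost, Scd3 in NOD (0.53) and WSB (0.64) were gained, and pairs called for Scd2 fell to 2. A mean of at least 5 CPM left no Scd4 to test, and with 1.15 to 48.3 estimated counts per library Scd4 is the gene most limited by depth. The cause was not tested.

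Libraries with the same replicate number in different strains had a mean correlation of deviations of 0.161, over 0.1 in 113 of 186 pairs, against -0.0193 and 457 of 1441 pairs with different numbers, and 17 of 61 libraries correlated best with their own number. Same-numbered libraries thus deviated together more often, but not in every pair, and the labels name no shared batch, so the block stands only as an alternative. Replicate number also went with Xist in part. In B6, NOD and NZO, replicates 1 to 4 held 413 to 668 CPM of Xist and replicates 5 to 8 at most 6.91 CPM. In PWK, replicate 3 held 6.02 CPM and replicate 6 held 607 CPM. The part of Xist in the shared deviations and in the block was not tested. A replicate block lost Scd3 in PWK (-0.94) and Scd4 in Cast (0.58), NZO (-0.55) and PWK (0.54).

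Leaving out each library in turn gave ranges of 0.27 to 0.38 for Scd1 in 129, 0.30 to 0.44 in NOD, 0.72 to 0.98 for Scd2 in AJ, -1.59 to -0.82 in Cast, -1.03 to -0.76 for Scd3 in PWK, and for Scd4 0.48 to 0.63 in Cast, -0.70 to -0.53 in NZO, 0.54 to 0.75 in PWK and 0.43 to 0.62 in WSB. Only these calls changed; Scd1 in 129 passed without NZO replicate 6. Leaving out libraries for the listed and neighbouring genes, whose effects stand beside their values, was also chosen after seeing the data.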
